A study of Drosophila melanogaster with 4 samples.

Results

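Cytoplasmic ribosomal protein genes encode the proteins of the ribosomes that translate nuclear messenger RNA. The genes described here are those whose FlyBase symbol begins with RpL, RpS or RpLP followed by a number, together with sta (stubarista), which encodes the small subunit protein known in mammals as RPSA. Names ending in -like were left out. Of 15222 gene features, 83 met this rule: 44 for the large subunit without its stalk, 36 for the small subunit and 3 for the stalk. A further 5 symbols of the reference annotation meet the rule but had no matched row. The shares, counts and medians given for ribosomal protein genes leave them out. The wing imaginal disc is a sac of larval epithelium that gives rise to the wing and dorsal thorax, and its RNA was sequenced at the third larval instar in 4 libraries of Drosophila melanogaster. There were 2 libraries of genotype wtsP2, an allele of the Hippo pathway kinase gene warts (wts), and 2 of wild-type genotype (WT). The strain label of both groups is yw, and all larvae were wandering when their discs were dissected by hand. The labels give neither the number of larvae behind a library nor whether replicates are separate cultures, so p-values measure only the spread between these libraries, which may be technical.

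Nearly every ribosomal protein is present in equal number in the ribosome, and the genes are transcribed together at very high levels in growing tissue. In Drosophila, loss of a single copy of many of them gives the Minute phenotype of slow growth and short bristles, and wild-type neighbours eliminate such cells from wing discs by cell competition. Warts restrains the coactivator Yorkie, which drives growth of the disc, and Myc, a growth regulator that raises ribosomal protein gene transcription, is among the genes linked to Yorkie in this tissue. Introns of many ribosomal protein genes also carry small nucleolar RNAs (snoRNAs), which guide the chemical modification of ribosomal RNA.

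The libraries held 3520970 and 3846682 counts in wtsP2 and 2112468 and 696952 in WT. In these libraries 3 counts, taken as the floor, were worth 0.860 and 0.836 CPM (the count scaled to the TMM-adjusted size of its library) in wtsP2 and 1.46 and 3.94 CPM in WT. The wts gene had 48 and 24 counts in wtsP2 and 46 and 0 in WT, too few to check the genotype labels. Of 10 wing disc markers, 7 had a row matched by symbol and all 7 were counted. They had summed levels of 2118 and 1981 CPM in wtsP2 and 2037 and 1809 CPM in WT. Of these, nub was higher in both wtsP2 libraries, at 602 and 760 CPM against 396 and 459 CPM in WT. The marker vg was lower in both, at 125 and 97.0 CPM against 234 and 198 CPM in WT. The remaining 5 overlapped between the groups. The 8 fat body markers, all tested, summed to 897 and 1382 CPM in wtsP2 and to 19977 and 18048 CPM in WT, with all 8 lower in both wtsP2 libraries. Salivary gland markers summed to 5.16 and 1.39 CPM in wtsP2 and 505 and 421 CPM in WT. Haemocyte markers summed to 157 and 245 CPM in wtsP2 and 540 and 634 CPM in WT, and muscle and myoblast markers to 104 and 106 CPM in wtsP2 and 139 and 390 CPM in WT. Of 4 tested haemocyte markers, PPO2 and srp were lower in both wtsP2 libraries, and Hml and Pxn overlapped between the groups. Of 4 tested muscle and myoblast markers, Act57B and Mef2 were lower in both wtsP2 libraries and Mlc2 overlapped. The myoblast marker twi went the other way, at 22.9 and 22.0 CPM in wtsP2 and 0 and 0 CPM in WT. The part of these cells in the levels of ribosomal protein genes was not tested.

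Ribosomal protein genes took 9.89% and 8.76% of all counts in wtsP2 discs and 13.1% and 9.18% in WT discs. The mean was 9.32% ± 0.798 in wtsP2 and 11.2% ± 2.80 in WT (SD, n = 2 each). WT replicate 1 stood above the other 3 libraries, and WT replicate 2 lay between the wtsP2 libraries. The difference of -1.84 percentage points was smaller than the spread between the WT libraries (exact two-sided permutation p = 0.667, where 2 against 2 cannot go below 0.333). Without WT replicate 1 the difference was 0.143 points, in the other direction. Wilson 95% intervals of these shares were at most 0.136 points wide and cover counting error only. In bulk discs, fewer cells of a type and less RNA per cell cannot be told apart.

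**Figure D1:**
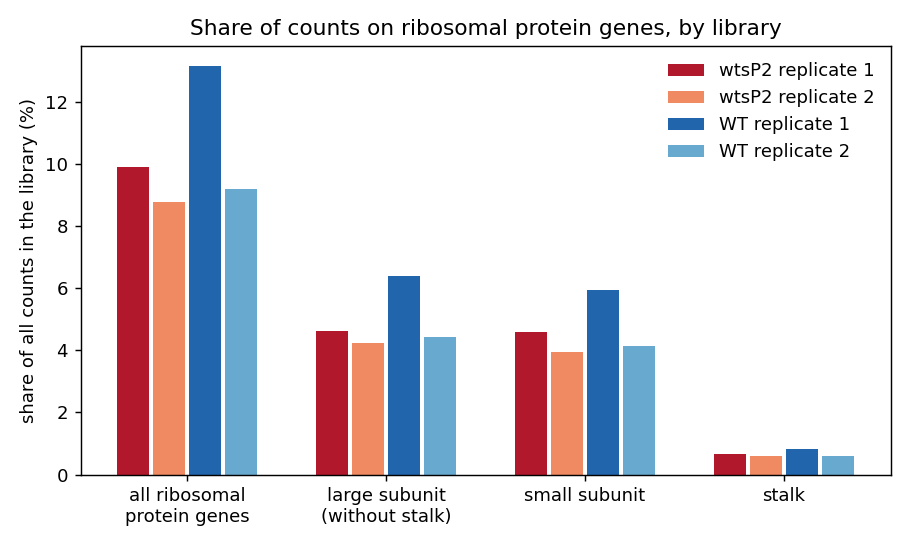
Share of all counts in each library (vertical axis, %) that belong to all 83 ribosomal protein genes, to the large subunit without the stalk, to the small subunit and to the stalk, with 1 bar per library. WT replicate 1 is the highest bar in every class, at 13.1% for all genes, while the other 3 libraries lie between 8.76% and 9.89%.

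The classes followed the same order of libraries. Large subunit genes without the stalk took 4.64% and 4.22% in wtsP2 and 6.39% and 4.43% in WT. Small subunit genes took 4.58% and 3.94% in wtsP2 and 5.93% and 4.15% in WT. The 3 stalk genes took 0.671% and 0.597% in wtsP2 and 0.820% and 0.600% in WT. In all 3 classes WT replicate 1 was highest and WT replicate 2 lay between the wtsP2 libraries. Each class gave the same exact permutation p of 0.667.

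Per length, these were among the most abundant protein-coding transcripts of the disc. RPKM, the deposited read count scaled to gene length and library depth, placed 68 and 68 of the 83 genes among the 100 highest protein-coding genes in the wtsP2 libraries, and 63 and 62 in the WT libraries. The median over the 77 genes that passed the filter on low counts was 1465 and 1273 RPKM in wtsP2 and 2225 and 1283 RPKM in WT. Other tested protein-coding genes had medians of 22.6 and 21.2 RPKM in wtsP2 and 20.6 and 15.6 RPKM in WT. Although their products are needed in like numbers, the transcripts were not level with each other: the 90th percentile of the 77 genes lay 8.13-fold and 7.15-fold above the 10th in wtsP2, and 9.98-fold and 9.23-fold above it in WT. These ratios leave out the 6 genes that did not pass the filter, 5 of them at 0 in every library.

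**Figure D2:**
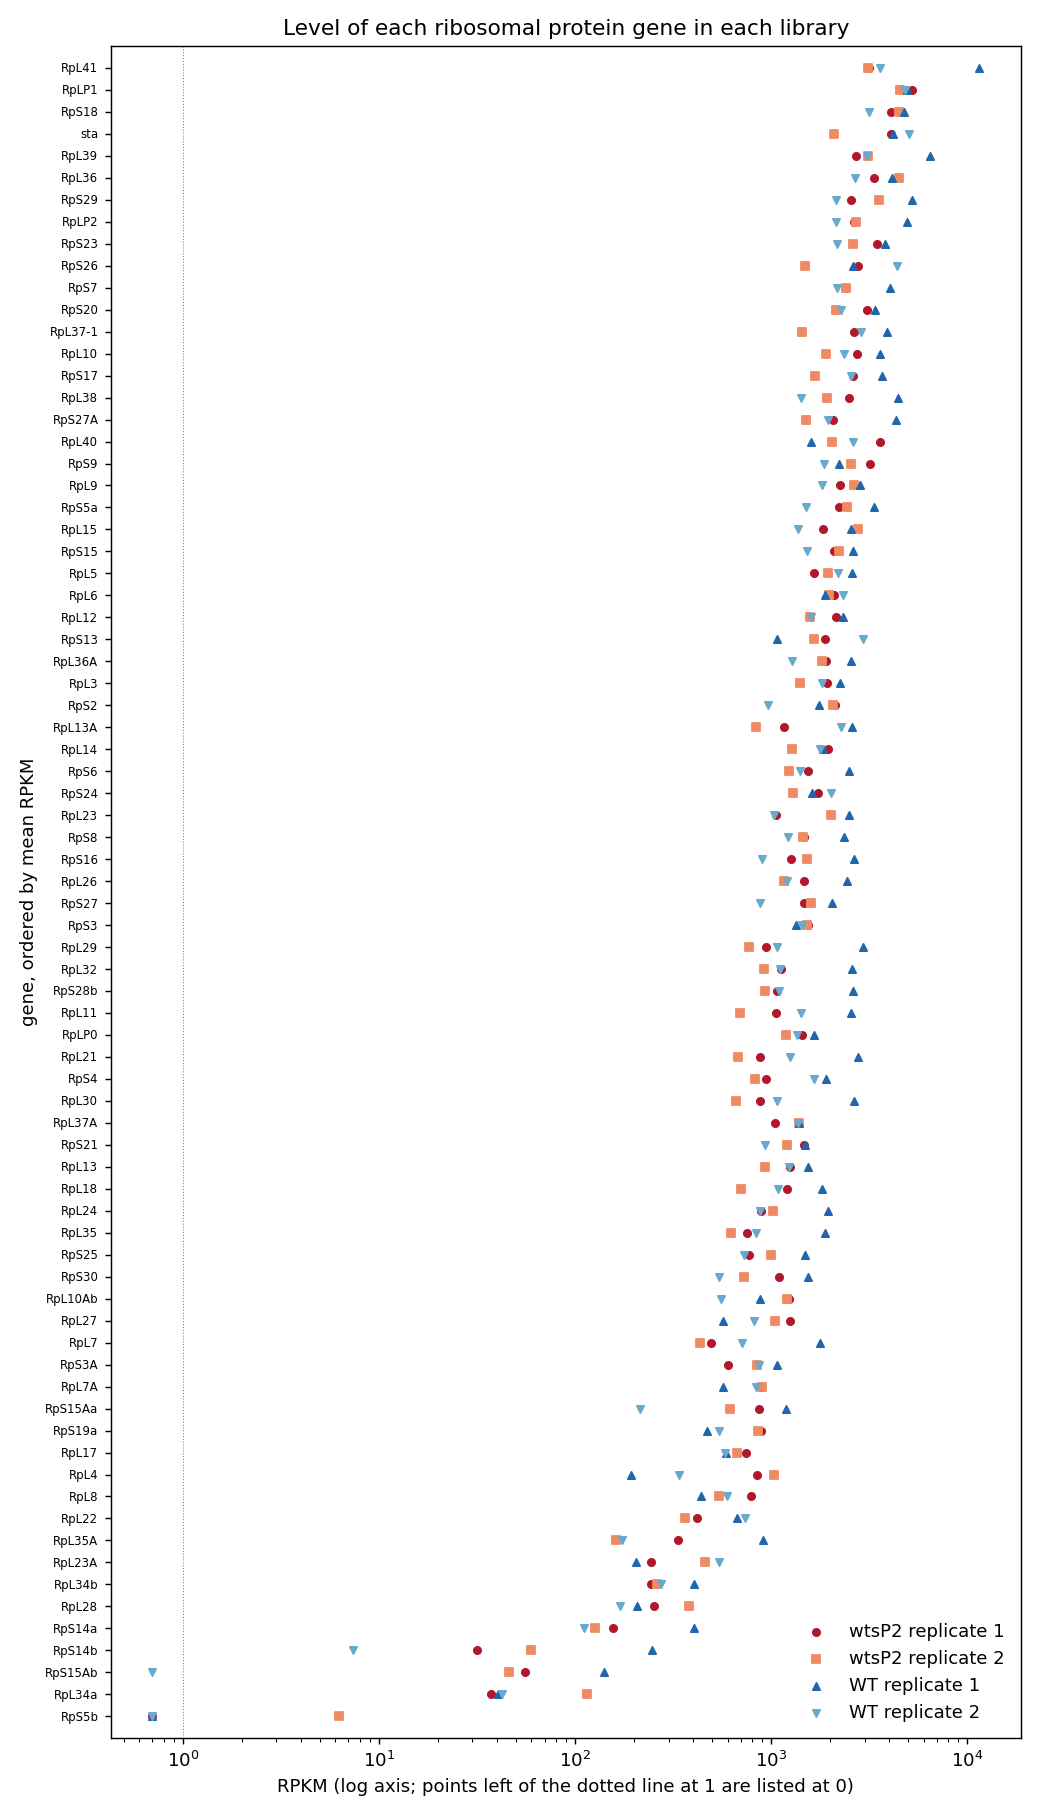
RPKM of each ribosomal protein gene with any count (horizontal log axis) in the 4 libraries, 1 row per gene and ordered by mean RPKM, with 2 genes not drawn. The means run up to 5342 RPKM for RpL41, and WT replicate 1 is the rightmost point for many genes, such as RpL41 at 11501 RPKM.

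The highest mean level belonged to RpL41, which encodes a very short basic peptide of the large subunit. It had 3174 and 3104 RPKM in wtsP2 and 11501 and 3587 RPKM in WT. Only WT replicate 1 stood apart, the other WT library lying near the wtsP2 pair. RpLP1, for an acidic stalk protein, came next at 5215 and 4522 RPKM in wtsP2 and 4922 and 4791 RPKM in WT. RpS18, for a protein of the small subunit's head, had 4107 and 4499 RPKM in wtsP2 and 4750 and 3162 RPKM in WT. For both, the groups overlapped.

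The gene sta had 4069 and 2101 RPKM in wtsP2 and 4182 and 5067 RPKM in WT, so that both wtsP2 libraries lay below both WT libraries, the first of them narrowly. RpL39 encodes one of the smallest proteins of the large subunit, near the exit of the peptide tunnel. It had 2717 and 3126 RPKM in wtsP2 and 6433 and 3080 RPKM in WT. RpL36 and RpS29 were also among the 8 highest, with means over the 4 libraries of 3658 and 3375 RPKM. Neighbours in this order did not stand apart beyond the spread of their libraries: RpL39 spanned 2717 to 6433 RPKM, a range that held the means of all the others named here.

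At the low end of the tested genes were RpL34a (mean 58.6 RPKM), RpS15Ab (60.3), RpS14b (86.7), RpS14a (199.98) and RpL28 (252). The first 4 each have a close paralog among these genes.

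Between wtsP2 and WT discs, most ribosomal protein genes had log2 fold changes near 0. RpL4 had the highest value at 1.95 and RpS14b the lowest at -1.46. For this comparison, edgeR's quasi-likelihood test was run on all 7278 genes that passed the filter, 77 of the 83 among them. None of the 77 passed an adjusted p of 0.05 in edgeR, higher or lower, and 0% of all tested genes did. At an unadjusted p under 0.05, 2 were higher and 2 lower, whereas over all tested genes 9.91% were higher and 2.65% lower by that rule. DESeq2 called 1 of 77 higher (1.30%) and 0 lower, beside 1.3% and 1.17% of all genes with an adjusted p. Limma-voom called 0 in either direction, beside 1.69% and 0.371% of all tested genes.

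The median log2 fold change of the 77 genes was -0.21, with 28 positive and 49 negative values, beside a median of 0.24 over all tested genes, of which 58% were positive. The quartiles were -0.60 and 0.13. Most values were small, since 66 of 77 lay between -1 and 1, where 56.1% of all tested genes did. Much of that gap goes with level, since 81 of 109 other tested genes at a like level (757 to 1869 CPM) also lay there. Of 18 genes alike in both length and level, within wider bounds and with a limit given below, 14 did. Both wtsP2 libraries lay above both WT libraries for 11 of the 77, where this held for 32.3% of all tested genes. They lay below both for another 11, where the share over all tested genes was 15.1%. The subunits gave similar values, with medians of -0.27 over 42 large subunit genes, -0.21 over 32 small subunit genes and -0.10 over the 3 stalk genes.

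Both the median and the counts rested on which WT library was in the fit. Without WT replicate 1 the median of the ribosomal protein genes was 0.30, in a fit where that of all genes was 1.33. In that fit 6 of 78 were called higher and 0 lower by edgeR, beside 31.5% and 8.53% of all tested genes. Without WT replicate 2 the median was -0.46, with 1 gene called higher and 15 lower, beside 12.3% and 5.67% of all tested genes. These fits take the spread of the remaining WT library to be that of the wtsP2 pair. Without wtsP2 replicate 1 or wtsP2 replicate 2, none of the ribosomal protein genes was called by edgeR, beside 0.128% of all genes higher and 0.179% lower in the first case and 0.0386% and 0.193% in the second. With no filter on low counts edgeR called 0 of 78, beside 0.224% higher and 0.171% lower. With the replicate number as a block it called RpL4 alone, beside 0.948% higher and 0.522% lower.

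**Figure D3:**
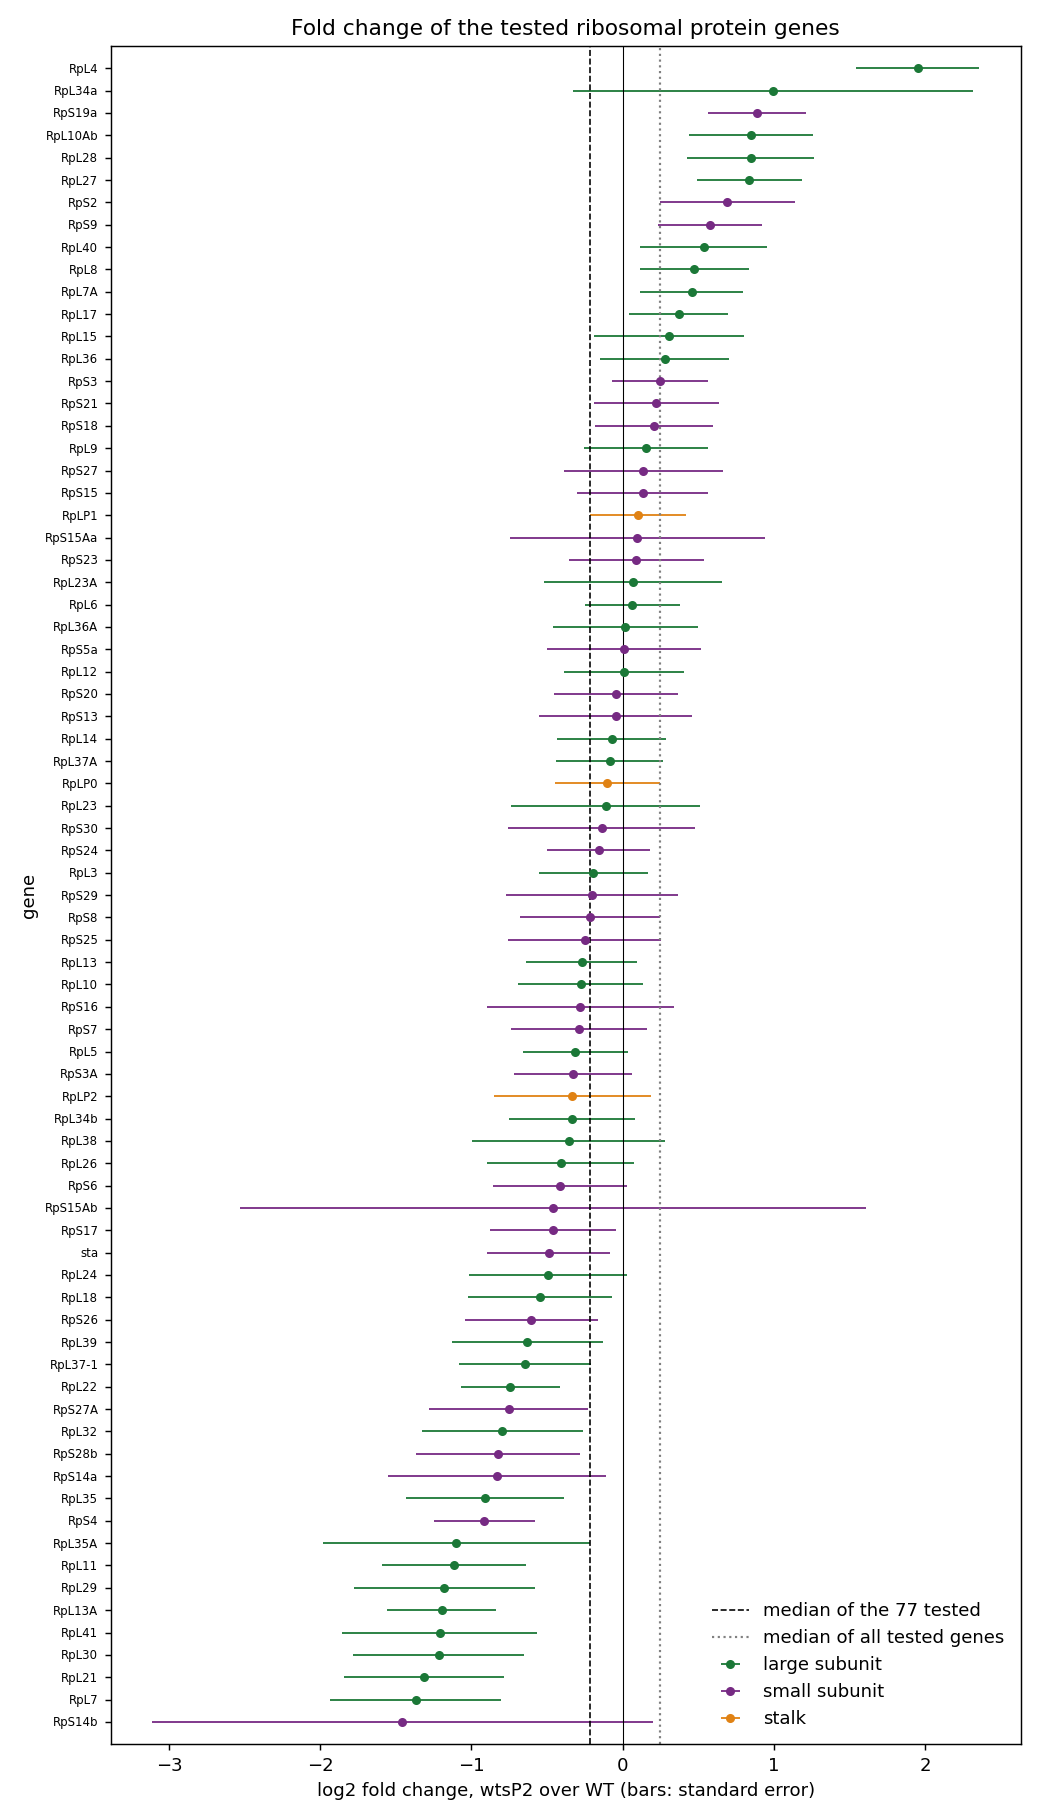
Log2 fold change of wtsP2 over WT (horizontal axis) for the 77 tested ribosomal protein genes except 2 that are not drawn, with the standard error from edgeR as bars and colours for the large subunit, the small subunit and the stalk. The values run from -1.46 for RpS14b to 1.95 for RpL4, around a dashed median of -0.21 that lies left of the dotted median of all tested genes at 0.24.

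RpL4 had the highest value of the 77. It encodes a core protein of the large subunit whose extension lines the tunnel through which the new peptide leaves (BDGP5 chromosome 3R, 23748515 to 23750644, plus strand). It had 1231 and 1594 CPM in wtsP2 discs and 284 and 449 CPM in WT discs. Every wtsP2 value was above every WT value. This gave a log2 fold change of 1.95 ± 0.41 (edgeR SE, 2 libraries each, adjusted p = 0.368). RpL4 was the only one of the 77 that DESeq2 called (log2 fold change 1.87, adjusted p = 0.00785). In edgeR it also passed without WT replicate 1 (1.66, adjusted p = 0.00761) and without WT replicate 2 (2.35, adjusted p = 0.000361), but not without either wtsP2 library. It was no exceptional gene by level, with a mean of 604 RPKM against a median of 1567 RPKM over the 77.

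RpS19a encodes a small subunit protein whose human counterpart is a frequent site of mutation in Diamond-Blackfan anaemia. It had 832 and 846 CPM in wtsP2 and 450 and 457 CPM in WT. The groups were apart and each pair of libraries was close. Its log2 fold change was 0.89 ± 0.32 (edgeR adjusted p = 0.368), and it lay between 0.78 and 0.94 under every alternative tried. RpL27, for a large subunit protein, had 1052 and 932 CPM in wtsP2 and 485 and 626 CPM in WT, at 0.84 ± 0.35 (edgeR adjusted p = 0.419). RpL10Ab, which encodes the protein of the ribosome's L1 stalk, had 1240 and 1279 CPM in wtsP2 and 896 and 501 CPM in WT, at 0.85 ± 0.41 (edgeR adjusted p = 0.538).

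The positive genes whose libraries did not overlap were RpL4, RpS19a, RpL10Ab, RpL28, RpL27, RpS2, RpS9, RpL8, RpL7A, RpL17 and RpS3. Their log2 fold changes ran from 0.25 for RpS3 to 1.95 for RpL4. RpS2 and RpS3 encode proteins at the site where messenger RNA enters the small subunit. RpS2 was at 0.69 ± 0.44 and RpS9 at 0.58 ± 0.34. RpL28 was at 0.85 ± 0.42, or 0.48 without wtsP2 replicate 2. Without WT replicate 1, RpL10Ab (1.33), RpL28 (1.10) and RpS2 (1.30) passed in edgeR, at adjusted p = 0.0206, 0.0456 and 0.0281. Without WT replicate 2 they were at 0.53, 0.68 and 0.31 and did not pass (edgeR adjusted p = 0.445, 0.272 and 0.659).

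Of the genes with negative values, RpL13A had the smallest p. Its product is a large subunit protein, which in human cells also takes part in translational silencing after interferon. RpL13A had 857 and 652 CPM in wtsP2 and 1940 and 1515 CPM in WT. Both wtsP2 libraries were below both WT libraries, at a log2 fold change of -1.20 ± 0.36 (edgeR adjusted p = 0.368). RpS4 had 980 and 918 CPM in wtsP2 and 2010 and 1565 CPM in WT, again without overlap, at -0.91 ± 0.34 (edgeR adjusted p = 0.368). For both genes the value kept its sign under every alternative, between -1.37 and -1.001 for RpL13A and between -1.04 and -0.72 for RpS4. RpL13A passed in edgeR without WT replicate 2 (adjusted p = 0.0197).

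A further set had large negative values that were much smaller without WT replicate 1. RpL21 had 566 and 463 CPM in wtsP2 and 1822 and 731 CPM in WT (log2 fold change -1.31 ± 0.53, edgeR adjusted p = 0.406). RpL7 had 439 and 407 CPM in wtsP2 and 1612 and 568 CPM in WT (-1.37 ± 0.57, edgeR adjusted p = 0.429). RpL11 encodes a protein that binds the 5S ribosomal RNA together with RpL5, and in mammals also binds the p53 regulator MDM2. It had 725 and 504 CPM in wtsP2 and 1781 and 882 CPM in WT (-1.12 ± 0.48, edgeR adjusted p = 0.444). In each case the groups did not overlap, but WT replicate 1 was more than 2 times WT replicate 2. Without WT replicate 1 the values were -0.50 for RpL21, -0.42 for RpL7 and -0.52 for RpL11. Without WT replicate 2 they were -1.78, -1.89 and -1.496, and all 3 genes passed in edgeR (adjusted p = 0.00129, 0.000542 and 0.00758).

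RpL30 (-1.22 ± 0.56) and RpL29 (-1.18 ± 0.60) followed the same course, at -0.29 and -0.14 without WT replicate 1, and passed in edgeR without WT replicate 2 (-1.73 each, adjusted p = 0.00161 and 0.00118). RpL41, whose RPKM values are given above, was at -1.21 ± 0.65 (edgeR adjusted p = 0.600) and passed at -1.82 without WT replicate 2 (edgeR adjusted p = 0.00166), while without WT replicate 1 it lay within 0.01 of 0. RpL39 was at -0.63 ± 0.50 and turned to 0.12 without WT replicate 1. Other genes among the 8 most abundant had smaller values: RpLP1 at 0.10 ± 0.32, RpS18 at 0.21 ± 0.39, RpL36 at 0.28 ± 0.42, RpS29 at -0.21 ± 0.57 and sta at -0.49 ± 0.41. RpS29 turned to 0.72 without WT replicate 1. The value of sta moved to -0.96 without wtsP2 replicate 1 and to -0.11 without wtsP2 replicate 2.

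The stalk is the flexible arm of the large subunit that recruits the elongation factors, built on RpLP0 and carrying RpLP1 and RpLP2. RpLP0 had 1809 and 1587 CPM in wtsP2 and 2110 and 1532 CPM in WT (log2 fold change -0.10 ± 0.35). RpLP2 had 1690 and 1817 CPM in wtsP2 and 3183 and 1234 CPM in WT (-0.33 ± 0.52). RpLP1 had 3272 and 3004 CPM in wtsP2 and 3141 and 2720 CPM in WT. The groups overlapped for all 3 genes, and RpLP0 and RpLP2 turned to 0.15 and 0.51 without WT replicate 1.

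RpS27A and RpL40 each encode a ribosomal protein fused to ubiquitin, from which it is released. RpS27A had 1243 and 954 CPM in wtsP2 and 2644 and 1060 CPM in WT (log2 fold change -0.75 ± 0.53). RpL40 had 2364 and 1423 CPM in wtsP2 and 1069 and 1544 CPM in WT (0.54 ± 0.42). The groups overlapped for both. RpS27A was at 0.057 without WT replicate 1 and passed at -1.23 without WT replicate 2 (edgeR adjusted p = 0.0358). RpL40 was at 0.16 without wtsP2 replicate 1, at 0.30 without WT replicate 1 and at 0.86 without wtsP2 replicate 2 or WT replicate 2. Their ubiquitin parts resemble those of other ubiquitin genes, and the sources used here do not state the treatment of reads that match several genes. RpS27A also overlaps Ip259 on the same strand in the count files.

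Within WT, 64 of the 77 genes (83.1%) were higher in replicate 1 than in replicate 2, with a median log2 difference of 0.84. Over all tested genes 58.2% were, with a median of 0.43. The wtsP2 libraries were closer, with a median log2 difference of 0.12 between the first and the second. Both wtsP2 libraries lay below WT replicate 1 for 54 of the 77 genes (70.1%) and above it for 15 (19.5%), beside 38.6% and 44.7% of all tested genes. They lay below WT replicate 2 for 15 genes (19.5%) and above it for 43 (55.8%), beside 28.7% and 60.4% of all tested genes. The median log2 ratio of wtsP2 to WT replicate 2 was 0.29 for the 77 genes and 0.97 for all tested genes. To WT replicate 1 it was -0.51 and 0.15. Across the 77 genes, log2 CPM correlated at Pearson r = 0.944 between the wtsP2 libraries and 0.797 between the WT libraries. WT replicate 2 correlated better with each wtsP2 library (0.906 and 0.870) than WT replicate 1 did (0.828 and 0.755). These correlations are across genes of the same libraries and are descriptions only. All 4 share the levels that set the genes apart.

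The genes that were high in WT replicate 1 tended to be short. The 77 genes have a median length of 766 exon bases, against 2096 for all tested genes. The ratio of wtsP2 to WT replicate 1 correlated with length across the 77 genes at Spearman rho = 0.363 and 0.345 for the 2 wtsP2 libraries. Against WT replicate 2 it did so at -0.0154 and 0.00875. Between the WT libraries themselves, the ratio of replicate 2 to replicate 1 had rho = 0.440 with length. In the pooled fit, the 39 genes of at most the median length had a median log2 fold change of -0.31. Both wtsP2 libraries lay above both WT libraries for 0 of them and below both for 6. The 38 longer genes had a median of -0.15, with 11 above both and 5 below both. Over all tested genes the shares were 32.3% above and 15.1% below. Among the 542 other tested genes from 638 to 938 bases long, 118 were above and 109 below.

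**Figure D4:**
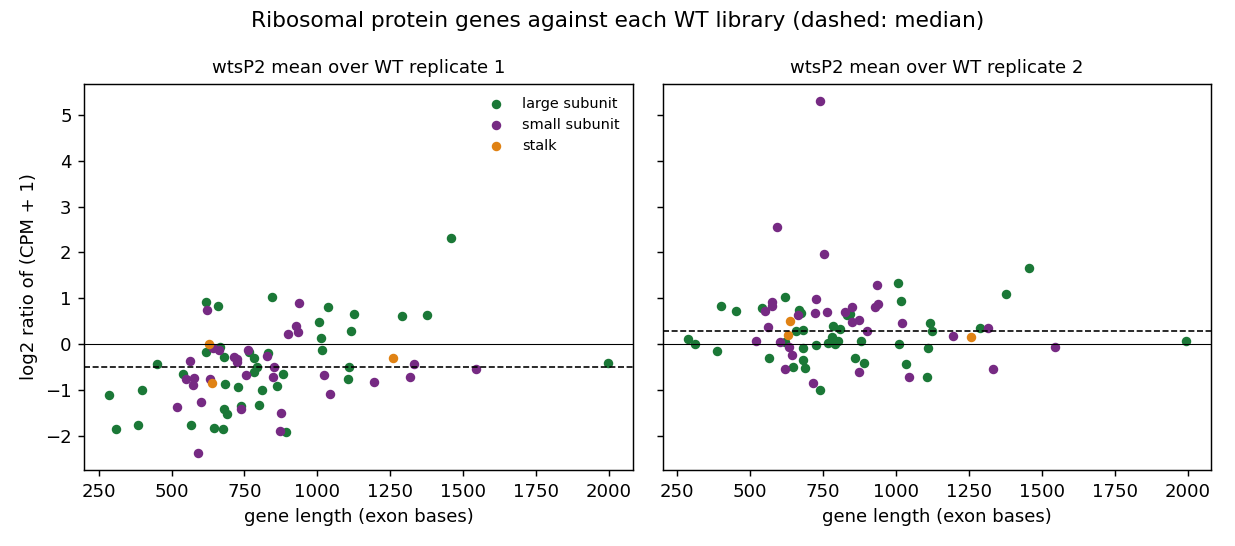
Log2 ratio of the mean wtsP2 level over WT replicate 1 (left) and over WT replicate 2 (right), each as CPM + 1, against gene length in exon bases, with 1 point per tested ribosomal protein gene and a dashed line at the median. On the left the median is -0.51 and most of the shorter genes lie below 0. On the right the median is 0.29 and the points show no slope with length.

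Other genes of like length also had medians below 0. The 542 tested genes outside the family with lengths from 638 to 938 bases, the interquartile range of the family, had a median log2 fold change of -0.19, beside -0.21 for the family, and the 1223 genes between its 10th and 90th length percentiles had a median of -0.07. The 109 other genes at a like level, from 757 to 1869 CPM, had a median of 0.23. Only 4 other genes met both bounds, at a median of -0.59. Bounds at the 10th and 90th percentiles of both took in 18 genes, at a median of -0.59. Features without a matched symbol were not left out of these sets. Some of the 5 ribosomal protein genes without a matched row could therefore be among the other genes. After each library was corrected by a smooth curve of its counts on gene length, the median of the 77 was -0.08, and it lay 0.32 below that of all genes in place of 0.46.

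Several ribosomal protein genes of Drosophila have a paralog that is mostly used in the germ line. RpL10Aa, RpS10a, RpS19b, RpS28a and RpL37-2 had 0 counts in all 4 libraries, which allows up to 3.94 CPM in the shallowest. RpS5b had 23 counts in wtsP2 replicate 2 and 0 in the other 3 libraries, beside 882 to 7878 counts for RpS5a. These 6 genes did not pass the filter. Of 4 matched testis and ovary markers, 3 were at 0 in every library and the 4th, aub, had 0 and 10 counts in wtsP2 and 16 and 0 in WT.

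Other paralogs were both counted. RpS14a and RpS14b lie next to each other on the X chromosome (7827779 to 7828713 and 7828937 to 7829832, plus strand) and are near-identical copies, so reads could be split between them. RpS14a had 136 and 116 CPM in wtsP2 and 360 and 87.9 CPM in WT. RpS14b had 18.6 and 37.4 CPM in wtsP2 and 149 and 3.94 CPM in WT. Both were highest in WT replicate 1 and lowest in WT replicate 2, so that the wtsP2 libraries lay inside the WT range. Their log2 fold changes of -0.83 ± 0.72 and -1.46 ± 1.65 turned to 0.53 and 2.82 without WT replicate 1, where the second rests on 3 WT counts. Without WT replicate 2 they passed at -1.47 and -2.37 (edgeR adjusted p = 0.00363 and 0.00165).

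RpS15Aa had 651 and 490 CPM in wtsP2 and 917 and 146 CPM in WT, and the single-exon copy RpS15Ab had 40.7 and 36.0 CPM in wtsP2 and 105 and 0 CPM in WT. The groups overlapped for both, at log2 fold changes of 0.10 ± 0.84 and -0.46 ± 2.07. Without WT replicate 1 both were called higher by edgeR (adjusted p = 0.00158 for RpS15Aa at 1.97, and 0.00234 for RpS15Ab, whose remaining WT library is at 0 counts). Without WT replicate 2 RpS15Aa was at -0.64 and RpS15Ab at -1.41, and neither passed (edgeR adjusted p = 0.297 and 0.0804). RpL34b had 214 and 245 CPM in wtsP2 and 360 and 218 CPM in WT (-0.33 ± 0.42), and RpL34a had 22.9 and 74.7 CPM in wtsP2 and 25.3 and 23.6 CPM in WT (0.99 ± 1.32). Per length, RpL34b gave 86.8% and 69.7% of the pair's level in wtsP2 and 90.9% and 86.6% in WT.

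The introns of these genes supplied a large part of the snoRNA in the libraries. Of 219 snoRNA features in the count files, 65 lie within 23 of the ribosomal protein genes on the same strand, and 64 of them had counts. They took 4.96% and 6.26% of all counts in wtsP2 and 5.60% and 6.543% in WT, of 9.15% and 13.1% for all snoRNAs in wtsP2 and 10.8% and 12.5% in WT. RpS5a holds the most nested snoRNAs tested (12), followed by RpS7 (7) and RpS16 (5). The nested snoRNA with the most counts was snoRNA:Psi18S-1377d in RpS7, with 9152 and 6161 CPM in wtsP2 and 5158 and 18707 CPM in WT. The WT libraries held both its lowest and its highest value.

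A snoRNA and its host come from the same primary transcript, but their values did not run together. Of the nested snoRNAs 58 were tested. None passed in edgeR. At an unadjusted p under 0.05, 1 was higher and 6 lower, where 10 and 10 of 140 other tested snoRNAs were. By that rule 9.91% of all tested genes were higher and 2.65% lower. The median log2 fold change of the nested snoRNAs was 0.01, against -0.21 for the 23 host genes and 0.14 for the 140 other snoRNAs. Across 21 hosts, the median value of the nested snoRNAs correlated with that of the host at Spearman rho = 0.157, a description over genes of the same 4 libraries. In 13 of the 21 hosts the snoRNAs lay above the host. In RpL13A they were at 0.42, against -1.20 for the host, and in RpS4 at 0.74, against -0.91. RpL28 went the other way, with snoRNAs at -1.74 and the host at 0.85, and RpL4 had 1 snoRNA at 0.88 and the host at 1.95. Hosts had about the same median as the 54 tested genes without a nested snoRNA (-0.21 and -0.26).

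**Figure D5:**
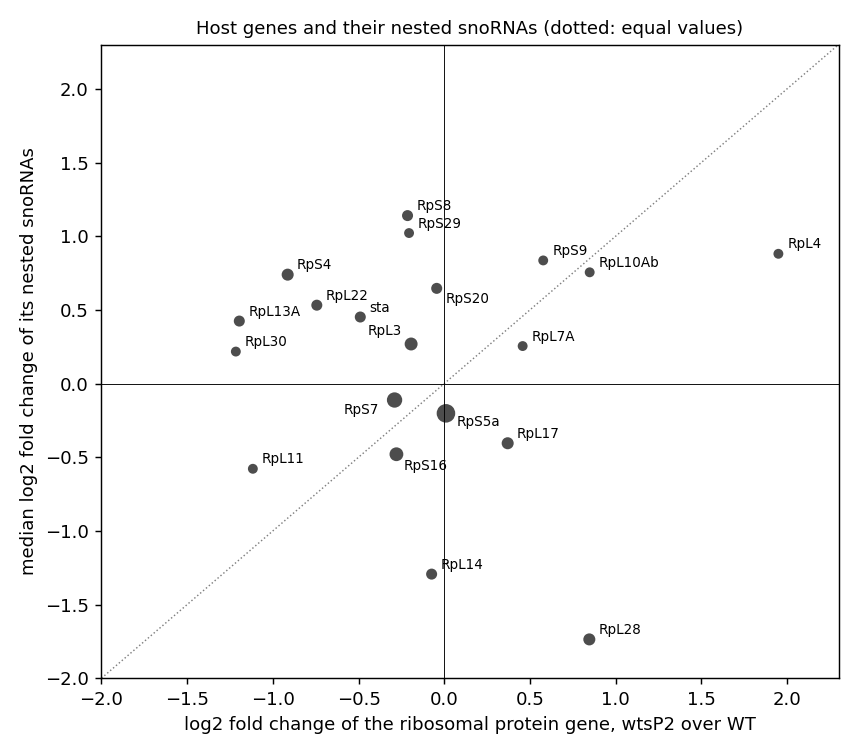
Median log2 fold change of wtsP2 over WT of the tested snoRNAs nested in each host gene (vertical axis) against the value of the host itself (horizontal axis), for 21 hosts except 1 that is not drawn, with larger points for more snoRNAs and a dotted line where both are equal. The points scatter on both sides of the line, with 13 of the 21 hosts above it, the undrawn host among them, and RpL28 lies furthest from it.

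The authors' deposited table of group means gives a second counting of the same libraries, scaled by DESeq. Of 77 ribosomal protein genes with a fold in the authors' deposited table, 58 had one below 1 and 19 one above 1, with a median fold of 0.787, and the median over all 7847 genes with a fold was 0.994. For 62 of the 77 genes the authors' deposited table gave the same direction as the count files, and for 15 the other. On the log2 scale the median difference, table minus count files, was -0.15, and 12 of these 15 genes were positive in the count files and below a fold of 1 in the authors' deposited table. On the log2 scale its folds correlated with those fitted here at Pearson r = 0.934 across these genes, which share their libraries. RpL4 had means of 3379 in wtsP2 and 1091 in WT in the authors' deposited table, a log2 ratio of 1.63, and RpS19a had 1700 and 1018, a log2 ratio of 0.74.

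The countings disagreed widely for some genes, both with and without nested snoRNAs. Set against the CPM of the count files and scaled to the median gene, 7 genes stood more than 2-fold high in both groups of the authors' deposited table: RpS16, RpL17, RpS7, RpL7A, RpL22, RpL10Ab and RpS20. All 7 are snoRNA hosts, as are 23 of the 77. Over the 23 hosts the median scaled value was 1.19 in wtsP2 and 1.25 in WT, beside 0.98 in each group for the 54 genes that host none. RpS16 stood 4.28-fold high in wtsP2 and 5.21-fold in WT, and RpS7 stood 3.99-fold and 4.13-fold high, in the authors' deposited table. For RpL22 this turned the direction: the authors' deposited table had 4417 in wtsP2 and 4023 in WT, whereas the count files gave 460 and 425 CPM in wtsP2 and 753 and 731 CPM in WT. RpS20 turned as well, at a log2 ratio of 0.51 in the authors' deposited table and -0.04 here.

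RpS6, which encodes the target of S6 kinase, was the extreme in the other direction. It had means of 35.0 in wtsP2 and 51.5 in WT in the authors' deposited table, but 1841 and 1565 CPM in wtsP2 and 3030 and 1507 CPM in WT in the count files. A second feature on the same strand, CR33222, overlaps it. RpS15Aa, RpS15Ab and RpL40 were the other genes below 0.5 of the scaled value in both groups of the authors' deposited table. The first 2 are paralogs of each other and RpL40 is a ubiquitin fusion. They host no snoRNA, and RpS15Aa stood at 0.11 in wtsP2 and 0.16 in WT.

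The factors that work with the ribosome were examined as separate lists. Of 8 elongation factor genes listed, 6 had a row matched by symbol and were tested, and 0 passed in edgeR (0 also at an unadjusted p under 0.05). All 6 had positive values, with a median of 0.09. Listed genes without a matched row could not be ranked. The most abundant of the 6 was eEF2, the translocase of elongation, with 4609 and 5442 CPM in wtsP2 and 5321 and 4235 CPM in WT (log2 fold change 0.07 ± 0.33). Next came eEF1gamma at 0.55 ± 0.35, eEF1beta at 0.01 ± 0.54 and eEF1delta at 0.06 ± 0.65, all subunits of the exchange factor of eEF1A. Of 22 tested ribosome assembly and nucleolar genes 0 passed in edgeR, 10 were positive, and the median was -0.06. Their 4 most abundant members per length were Nlp (0.55 ± 0.62), Nph (-0.20 ± 0.35), Non1 (0.50 ± 0.48) and Nop60B (-0.43 ± 0.39).

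Xrp1 and Irbp18 encode partner bZIP factors that respond to the loss of a ribosomal protein gene copy in discs. Xrp1 had 688 and 299 CPM in wtsP2 and 339 and 223 CPM in WT (log2 fold change 0.81 ± 0.53, edgeR adjusted p = 0.736), with overlapping groups. Irbp18 had 103 and 97 counts in wtsP2 and 0 and 0 in WT (edgeR adjusted p = 0.368). Against a floor of 3 counts over the WT group the ratio is 26.6-fold. That floor covers counting error only, not the spread between libraries, and is no lower bound. The WT libraries could differ by far more, as for the nucleolar gene NHP2 with 202 and 0 counts.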

How the data were processed

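Libraries were made from total RNA with a SOLiD kit for that purpose, per the labels' protocols. HTSeq, DESeq and the builds BDGP5 and dm3 are named in the submitters' processing notes, and for the aligner and the strand setting the sources used here give nothing. The deposited files give raw counts and RPKM per gene for each library. The authors' deposited table gives group means of a signal, counts divided by DESeq size factors, and the ratio (fold) of those means, per its file header. Symbols came from reference annotation tables and matched 14346 of 15222 features. The members and gene lists were chosen with earlier results of these data known.

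The main test was edgeR 4.0.16 under R 4.3.3 (quasi-likelihood, TMM scaling, low-count filter, Benjamini-Hochberg adjustment over all 7278 genes). The standard error is the log2 fold change divided by the square root of F. DESeq2 1.42.0, limma-voom 3.58.1, other scalings and filters, a replicate block, a length curve and leaving out each library were alternatives. The fits were tested on simulated data. Named genes were the 8 highest per length, the 8 with the smallest p, the stalk, ubiquitin fusion and paralog genes, genes at 0 in a library and sta, and for other lists the 4 highest per length, and genes outside that rule chosen after their values were seen. Sequences were not analysed here, and 2 of the genes are in all counts and medians but are not reported here by name.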

Additional observations from a re-analysis of the deposited data

How the results depend on the processing

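The counts of calls depended on the method. Over all genes, edgeR called 0 higher and 0 lower. It called 21 higher and 16 lower with no filter on low counts, DESeq2 called 96 and 86, and limma-voom 123 and 27. Leaving out 1 library at a time gave 3 to 2514 higher and 14 to 681 lower. Of the ribosomal protein genes DESeq2 called 1 higher, and leaving out 1 library gave 0 to 6 higher and 0 to 15 lower. The labels do not say whether libraries of the same replicate number belong together. Over the tested genes, the deviations of same-numbered libraries correlated at 0.00801, a single value that cannot settle this. A fit with the replicate block called 69 higher and 38 lower, 1 ribosomal protein gene (RpL4) among the higher.

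The median log2 fold change of the ribosomal protein genes ran from -0.46 to 0.30 when 1 library was left out, and its distance from the median of all genes from -1.03 to -0.40. That distance was -0.94 with limma-voom and -0.86 with the replicate block. The difference in share of counts ran from -3.82 to 0.143 points. The median of other genes alike in length and level, -0.59, was -0.19 by length alone and 0.23 by level alone, both chosen after seeing the data.

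Over 31 genes and 14 alternatives, 396 of 434 values kept their direction and side of the threshold, 19 passed it and 20 changed sign, with RpS15Ab without WT replicate 1 in both counts. With the length curve RpS29 was at 0.23, RpLP2 at 0.023 and RpS15Ab at 0.15. RpS15Ab, at 0 counts in WT replicate 2, was at 3.56 with limma-voom and 1.94 with the replicate block. With 1 library left out, values ran from -0.083 to 0.64 for RpS18, -1.08 to 0.12 for RpL39, -0.029 to 0.74 for RpL36, -0.72 to 0.72 for RpS29, -0.27 to 0.15 for RpLP0, -0.82 to 0.51 for RpLP2 and -1.23 to 0.057 for RpS27A. For the paralogs they ran from -1.47 to 0.53 for RpS14a, -2.37 to 2.82 for RpS14b, -0.085 to 1.64 for RpL34a, -0.61 to 0.082 for RpL34b, -0.64 to 1.97 for RpS15Aa and -1.41 to 9.65 for RpS15Ab, the last against a WT library with 0 counts, where a fitted value is no bound. The cause was not tested. The WT libraries were the shallowest, and the 696952 counts of WT replicate 2 limit every comparison.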
